A study of Mus musculus with 15 samples.

Results

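The comparison described here is that of the short hairpin RNA sh4 with the control hairpin shCTR in mouse embryonic stem (ES) cells kept for 72 hours in 1 uM retinoic acid. Its arrays were taken by their labels: the 3 arrays titled sh4 with retinoic acid (biological replicates 1, 3 and 4) and the 4 arrays titled shCTR with retinoic acid (biological replicates 1 to 4), which makes 7 of the 15 arrays in the series. The other 8 arrays are untreated ES cells carrying shCTR (4 arrays) or sh4 (4 arrays), and the labels give no culture time for them. All 15 samples carry a hairpin, so cells without one were not measured. The labels do not state which gene sh4 targets, whether a pool or a clone was used, or the strain of the ES cells, and the title of the series names Phf19. The titles call the samples biological replicates, but nothing ties them to separate cultures. The p-values therefore measure only how far these samples spread, which may be technical.

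Phf19 is one of the Polycomb-like proteins, accessory subunits of Polycomb repressive complex 2 (PRC2), the enzyme complex that methylates lysine 27 of histone H3 and keeps developmental genes silent. Its Tudor domain binds histone H3 methylated on lysine 36, a mark of transcribed genes. Retinoic acid, a derivative of vitamin A, binds nuclear receptors that open the Hox clusters and other developmental genes, and it drives ES cells out of pluripotency. One of the fates that retinoic acid can open is extraembryonic endoderm, the lineage of the yolk sac: its visceral branch takes up and secretes nutrients and carriers, and its parietal branch builds a thick basement membrane.

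Total RNA (500 ng per sample) was labelled with Cy3 and read on 1-colour Agilent arrays. A level below is the log2 processed signal of a gene's probe minus the 75th percentile of its array, so 0 is the upper quartile of that array, and a level of one gene cannot be set against that of another. On the 7 retinoic acid arrays the scanner software marked 74.5% to 79.4% of probes as well above background. The intensity at the 75th percentile ran from 1582 to 1889, and no spot was saturated. The scanner software rated 1 of the 7 arrays, sh4 replicate 1, for evaluation. Arrays from the same slide deviated from their group means together (correlations of 0.218 to 0.594 for the 3 pairs of the retinoic acid groups that shared a slide), so within-slide differences are given for the leading genes. Slide 4 held no array of sh4 in retinoic acid. The third sh4 array, replicate 4, stood apart from replicates 1 and 3 in the pluripotency genes, and results that rest on it are given with and without it.

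Phf19 itself was lower in sh4 cells in retinoic acid. Its levels were -3.91, -3.99 and -3.73 in sh4 replicates 1, 3 and 4, and -3.03, -3.08, -3.07 and -2.82 in shCTR replicates 1 to 4, so the groups did not overlap. The difference was -0.88 ± 0.09 (log2, SE, n = 3 and 4, adjusted p = 1.8e-05 by limma), which leaves 54.4% of the control signal. Within slides it was -0.88, -0.91 and -0.66, and with normexp background correction -0.57. In untreated cells the sh4 effect on Phf19 was -1.73, and the difference between these effects was itself past the threshold (0.85, adjusted p = 3.4e-04). Of the 13 PRC2 subunits measured, Suz12, a core subunit that the complex needs for its stability, also fell: 0.29, 0.33 and 0.29 against 0.71, 0.87, 0.58 and 0.60, a change of -0.39 ± 0.08 (adjusted p = 0.0028 by limma). The Suz12 call was lost with normexp background correction (-0.31) and in the deposited value table (-0.34). The catalytic subunits Ezh2 (0.11) and Ezh1 (0.13), the core subunit Eed (-0.08) and the other Polycomb-like proteins Phf1 (-0.09) and Mtf2 (0.01) did not pass the test. In PRC1, the complex that ubiquitinates histone H2A, 2 of 22 subunits rose (Rnf2, its ubiquitin ligase, by 0.25, and Scmh1 by 0.49) and 1 fell (Pcgf5, -0.39), no larger a share than among all genes (10.8% rose and 10.3% fell). The Rnf2 call was lost without sh4 replicate 1 (0.24). Of 15 enzymes that write or erase H3K36 methylation 4 rose, by 0.29 (Kdm2a), 0.33 (Kdm4a), 0.44 (Ash1l) and 0.45 (Kdm4d), and all 4 calls were lost without sh4 replicate 4, 3 of them also when 1 of several other arrays was left out.

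Across all 25139 genes tested, 5288 differed between the hairpins in retinoic acid (21% at an adjusted p under 0.05). The 2706 genes that rose (10.8%) and the 2582 that fell (10.3%) were close in number, and the median over all genes was 0.04. The large changes lay on one side. At least a 2-fold fall was seen for 723 genes (2.88%) and at least a 2-fold rise for 129 (0.513%), and at 4-fold the counts were 161 (0.64%) and 8 (0.0318%). In 721 of the 723 genes that fell 2-fold, and in 128 of the 129 that rose, sh4 lay on the same side of shCTR on each of the 3 slides that held both groups. Since these genes were chosen for their difference on the same arrays, such agreement was largely built in. Over all 25139 genes it held for 14196. The counts of large changes depend on how low signals are treated: with normexp background correction, whose offset of 50 draws weak signals together, 335 genes fell and 45 rose at least 2-fold. With each array centred on its median in place of its 75th percentile 3278 genes were called in all. Among the genes named in the text, this scaling ended the calls of Cdx2, Rnf2, Ash1l, Kdm2a, Kdm4a, Kdm4d, Vdr, Nr1h4, Fgg, Ezr, Lama5 and Trh. It also ended those of Pax6, Nes, Map2, Hand1, Gata1, Dnmt3b, Zscan4c, Thy1, Fgfr1, Ldha and Calr.

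**Figure D1:**
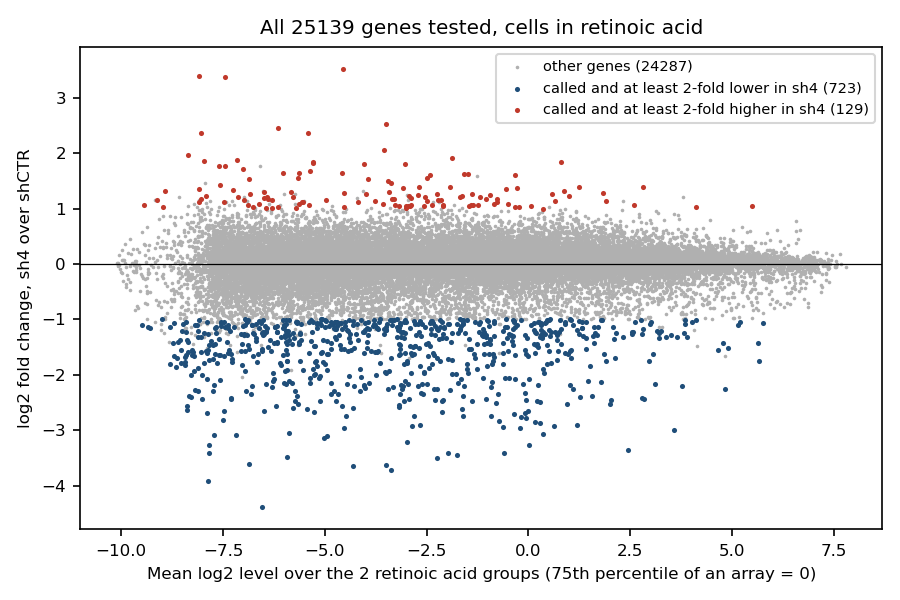
Each point is 1 of 25139 genes. The horizontal axis is its mean log2 level over the 2 retinoic acid groups, with the 75th percentile of an array at 0, and the vertical axis is the log2 fold change of sh4 over shCTR. The 723 genes called and at least 2-fold lower reach below -4, while the 129 called and at least 2-fold higher are fewer at every level.

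The largest falls included Fabp1. This gene, a fatty acid carrier of liver, gut and visceral endoderm, was not well above background on any sh4 array and was at least 11.4-fold lower than in shCTR, where its levels were -4.58, -4.63, -4.48 and -3.76. The others included the factor Hnf4a (-3.51), the thyroxine carrier Ttr (-3.41), the leucine-rich repeat proteoglycan Nepn (-3.64), the plasma protease Habp2 (-3.27), the water channel Aqp8 (-3.45), the pepsinogen Pga5 (-3.41), the galectin Lgals2 (-3.22) and the glucuronosyltransferase Ugt2b34 (-3.72). The proteoglycan of secretory granules Srgn fell from 4.14, 3.93, 4.10 and 4.32 in shCTR to 0.67, 0.59 and 1.02 in sh4. The remaining falls on the list were Ldc1 (-3.62), the signalling adaptor Tyrobp (-3.14) and, below background on all 3 sh4 arrays, the kinase Ptk6 (at least 3.95-fold lower), the lectin Reg4 (at least 3.39-fold) and Prame (at least 7.17-fold). The calls of the dim genes Ptk6 and Reg4 were lost with normexp background correction. Under it the changes of Fabp1 (-0.86), Prame (-0.73), Nepn (-1.88), Ldc1 (-2.33) and Tyrobp (-1.28) were smaller. The bounds given for Fabp1 and Prame did not hold under it.

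Among the largest rises was Macc1, a regulator of growth factor receptor signalling in epithelial cells: -2.51, -2.76 and -3.13 in sh4 against -6.49, -6.56, -6.02 and -6.19 in shCTR, a difference of 3.52 ± 0.17 (adjusted p = 1.8e-08 by limma). The protease of insulin-like growth factor binding proteins Pappa2 rose by 2.53, the membrane-protrusion protein Prom2 by 2.45, the surface serine proteases Tmprss4 and Tmprss13 by 2.37 and 1.84 and Grhl2, a transcription factor of epithelial junction genes, by 1.92. Wnt6, a ligand of the Wnt family, stood at 2.09, 1.47 and 1.59 in sh4 and at -0.16, -0.10, 0.01 and -0.23 in shCTR (1.84 ± 0.14). Rai2 and the serpin Serpinb9g each rose by 1.80. Spink8, the claudin Cldn8, the chemokine Cxcl15, the linker histone gene H1f3 and the antisense transcript Hoxd3os1 were below background on all 4 shCTR arrays, and were at least 2.89-fold, 4.47-fold, 2.08-fold, 1.44-fold and 3.20-fold higher in sh4. These 5 calls were lost with normexp background correction. Under it the rises of Macc1 (1.83), Prom2 (0.59), Tmprss4 (0.96) and Tmprss13 (0.73) were smaller, while Pappa2 was at 1.81 and Wnt6 at 1.77. Hoxd3os1 is the name that the annotation gives this probe, and how far it reads Hoxd3 itself was not tested.

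Of the 30 gene lists with measured members, the lowest median was that of the secreted and carrier proteins of visceral endoderm (-1.19). The counts of each list below stand beside the 10.8% of all genes that rose and the 10.3% that fell. All 8 defining markers of extraembryonic endoderm used for the check (Gata4, Gata6, Sox17, Sox7, Hnf4a, Dab2, Afp and Ttr) were well above background on all 7 arrays and all 8 fell. Their summed linear signal, relative to the 75th percentile, was 5.8 to 6.12 on the sh4 arrays and 19.2 to 21.9 on the shCTR arrays, against 0.986 to 1.12 in untreated shCTR cells. Fewer endoderm-like cells and less of these RNAs per cell cannot be told apart in bulk RNA.

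Hnf4a, Dab2 and Afp are shown by the DNA just before their start sites, because they are the defining endoderm markers for which the RefSeq table holds a promoter that may be printed. Each line gives the 250 bases before 1 annotated start, 5′ to 3′ on the gene's strand (here the plus strand), from RefSeq on GRCm38.p6, and capitals mark matches to 2 motifs searched on both strands: the GATA motif (AGATAA or TGATAA) and the HNF1 half-site (GTTAAT, which reads ATTAAC on the other strand).
Hnf4a start 1, chr2:163506607-163506856: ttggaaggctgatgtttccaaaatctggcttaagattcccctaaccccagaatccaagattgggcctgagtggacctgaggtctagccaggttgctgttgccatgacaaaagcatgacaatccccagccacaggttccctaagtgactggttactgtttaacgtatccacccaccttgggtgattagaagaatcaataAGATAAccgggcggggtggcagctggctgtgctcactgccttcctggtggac
Hnf4a start 2, chr2:163546905-163547154: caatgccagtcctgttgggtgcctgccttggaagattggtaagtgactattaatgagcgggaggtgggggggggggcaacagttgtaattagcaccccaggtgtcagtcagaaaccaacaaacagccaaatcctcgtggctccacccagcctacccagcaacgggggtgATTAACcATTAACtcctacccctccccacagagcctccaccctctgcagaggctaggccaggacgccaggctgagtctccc
Dab2 start 1, chr15:6299539-6299788: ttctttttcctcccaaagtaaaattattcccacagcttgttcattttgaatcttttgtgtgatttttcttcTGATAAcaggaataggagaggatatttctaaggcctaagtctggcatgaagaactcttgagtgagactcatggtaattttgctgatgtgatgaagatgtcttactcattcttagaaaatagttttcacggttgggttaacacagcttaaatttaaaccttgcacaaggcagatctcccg
Dab2 start 2, chr15:6386498-6386747: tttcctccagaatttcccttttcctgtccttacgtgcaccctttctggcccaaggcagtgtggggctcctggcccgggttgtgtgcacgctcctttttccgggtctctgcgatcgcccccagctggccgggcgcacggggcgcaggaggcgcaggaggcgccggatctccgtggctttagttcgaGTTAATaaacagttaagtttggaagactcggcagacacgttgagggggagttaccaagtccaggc
Afp, chr5:90490464-90490713: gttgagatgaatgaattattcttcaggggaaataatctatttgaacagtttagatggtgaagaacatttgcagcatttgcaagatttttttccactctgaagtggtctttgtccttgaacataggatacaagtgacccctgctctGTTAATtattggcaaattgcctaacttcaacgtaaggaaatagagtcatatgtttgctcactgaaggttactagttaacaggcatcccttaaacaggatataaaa
The first Hnf4a start and the first Dab2 start each hold 1 GATA motif, the second Hnf4a start holds 2 HNF1 half-sites 1 base apart on the minus strand, and the second Dab2 start and the Afp start hold 1 each. These are short motifs: a GATA motif stands in 16.6% of all 32851 promoters of the table, and an HNF1 half-site in 6.43%. Among the 17844 promoters of genes tested here the shares were 11.6% and 4.92%. Neither the HNF4 motif (CAAAGTC, in 3.84% of all promoters) nor the SOX motif (ACAATGG, in 3.02%) occurs in these 5 windows. A match describes the letters and is not evidence of binding. No comparison of motif shares between the genes that fell and the rest is drawn. Only 469 of the 723 genes that fell at least 2-fold (64.9%), and 56.9% of all genes tested, had a promoter in the table.

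Of 20 transcription factors of extraembryonic endoderm, 11 fell and 3 rose (10.3% of all genes fell and 10.8% rose), with a median of -0.53. Hnf4a, the nuclear receptor that activates apolipoprotein and other visceral endoderm genes, was at -4.14, -4.0 and -3.82 in sh4 and at -0.45, -0.75, -0.37 and -0.36 in shCTR, 11.4-fold lower (-3.51 ± 0.11, adjusted p = 6.1e-10 by limma). Sox7 fell from 0.54, 0.42, 0.38 and 0.44 to -2.05, -2.11 and -2.03 (-2.51 ± 0.07). Gata4 fell from -0.13, -0.19, -0.20 and -0.10 to -2.63, -2.66 and -2.58 (-2.47 ± 0.08). For these 3 regulators the groups were far apart beside the spread within either. Within slides Hnf4a differed by -3.70, -3.25 and -3.45, Sox7 by -2.59, -2.53 and -2.41 and Gata4 by -2.50, -2.47 and -2.38.

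Gata6 and Sox17, which act at the first step of primitive endoderm, fell less. Gata6 was at 1.67, 1.58 and 1.70 in sh4 and at 2.93, 2.75, 3.1 and 3.08 in shCTR (-1.32 ± 0.08), and Sox17 changed by -1.27 ± 0.12. The forkhead factors Foxa2 (-0.83) and Foxa1 (-0.58) and the head organiser factor Otx2 (-0.86, and -0.48 with normexp) also fell. Isl1, a LIM-homeodomain factor, rose by 0.60, and the receptors Vdr and Nr1h4 by 0.39 and 0.38, although the Vdr call was lost without sh4 replicate 1 (0.35) and both receptor calls were lost with normexp background correction. Set beside untreated cells, the falls of Hnf4a and Gata4 were larger in retinoic acid (untreated -1.84 and -0.78, interaction -1.66 and -1.69), whereas those of Gata6 and Sox17 were smaller (untreated -1.91 and -1.88, interaction 0.59 and 0.61). All 4 interactions passed the threshold.

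The secreted and carrier proteins of visceral endoderm were mostly lower: 20 of 31 fell and 1 rose (10.3% and 10.8% of all genes). The median was -1.19, with within-slide medians of -1.14, -1.05 and -1.49. Ttr was at -3.70, -3.82 and -3.50 in sh4 and at -0.35, -0.47, -0.15 and -0.07 in shCTR. Afp, the fetal albumin-like carrier, was at -3.38, -3.45 and -3.50 against -1.32, -1.41, -0.96 and -1.04 (-2.26 ± 0.18, adjusted p = 1.5e-06 by limma). No array of one group reached the range of the other for either gene. Of the lipoprotein genes, Apoa1 changed by -2.60, Apoa4 by -1.94, Apom by -2.74 and the lipid transfer protein Mttp by -2.07. Of the clotting genes, prothrombin (F2) changed by -2.74 and the fibrinogen beta chain (Fgb) by -2.74, while the fibrinogen gamma chain (Fgg) rose by 0.26, a call lost without sh4 replicate 4 (0.21). With normexp background correction Apoa1 was at -0.82, Apoa4 at -0.58 and Fgb at -1.34, while Apom was at -2.57. Ihh, the hedgehog ligand that visceral endoderm sends to the cells beneath it, changed by -2.85 and the retinol carrier Rbp4 by -1.19. When only genes well above background on all 15 arrays were kept, 10 secreted and carrier genes fell, because genes that are off in untreated cells leave the set.

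The uptake machinery of visceral endoderm followed with 16 of 22 members lower and 3 higher (10.3% and 10.8% of all genes), and a median of -0.73. Cubilin (Cubn), the large receptor for vitamin B12 carriers and albumin, was at 1.86, 2.08 and 2.28 in sh4 and at 5.05, 4.90, 5.12 and 5.18 in shCTR, 7.94-fold lower (-2.99 ± 0.13, adjusted p = 7e-09 by limma). Its membrane partner Amn changed by -2.78, the partner receptor megalin (Lrp2) by -1.26 and Lrpap1, the chaperone of that receptor family, by -2.25. Dab2, the adaptor that links these receptors to clathrin, was at 0.48, 0.38 and 0.22 against 2.94, 2.65, 2.61 and 2.80 (-2.39 ± 0.11). The scaffold Pdzk1 (-2.08), the transcriptional cofactor Cited1 (-1.75), the lysosomal proteases Lgmn (-1.63), Ctsh (-1.06) and Ctsl (-0.89) and the folate receptor Folr1 (-0.53) fell too. The 3 members that rose were the iron exporter Slc40a1 (0.81), the transferrin receptor Tfrc (0.60) and the membrane linker Ezr (0.24). In untreated cells the sh4 effect was 0.02 for Dab2, 0.48 for Lrpap1, 0.72 for Pdzk1, 1.35 for Cited1 and 1.05 for Lrp2, and the interactions were -2.41, -2.72, -2.80, -3.1 and -2.32, all past the threshold.

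Basement membrane genes and parietal endoderm markers were lower in 19 of 24 cases and higher in 1 (10.3% and 10.8% of all genes). The median was -0.89, with within-slide medians of -0.98, -0.74 and -0.93. Col4a1, a chain of the basement membrane collagen, was at 1.60, 1.55 and 1.72 in sh4 and at 4.03, 3.87, 4.10 and 4.25 in shCTR (-2.44 ± 0.09, adjusted p = 1.9e-09 by limma), and its partner chain Col4a2 changed by -2.17. The 3 chains of the first embryonic laminin fell by similar amounts, Lama1 by -1.75, Lamb1 by -1.43 and Lamc1 by -1.51. In untreated cells Lama1 was also lower (-1.43), whereas Lamb1 (0.71) and Lamc1 (0.25) were higher, so that the interaction was -0.33, -2.14 and -1.77. Pth1r, the receptor that drives parietal differentiation, changed by -2.46, Pdgfra, an early marker of primitive endoderm, by -1.58, Snai1 by -1.22, Thbd by -0.86 and Sparc by -0.70. Of the collagen-processing enzymes, P4ha2 changed by -0.64, Plod2 by -1.22 and the collagen chaperone Serpinh1 by -0.64. The plasminogen activator Plat was at -1.48, -1.06 and -0.84 against -0.09, -0.33, -0.49 and 0.05, without overlap. It did not pass the test over all arrays (-0.91 ± 0.45, adjusted p = 0.2 by limma). It did pass in a fit of the retinoic acid arrays alone (-0.91, adjusted p = 0.018 by limma) and with normexp background correction (-0.87, adjusted p = 0.0062). Lama5, a laminin chain of later epithelia, rose by 0.63, a call lost without sh4 replicate 4 (0.53). The summed signal of the 5 parietal markers was 119 to 128 in sh4 and 252 to 266 in shCTR.

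**Figure D2:**
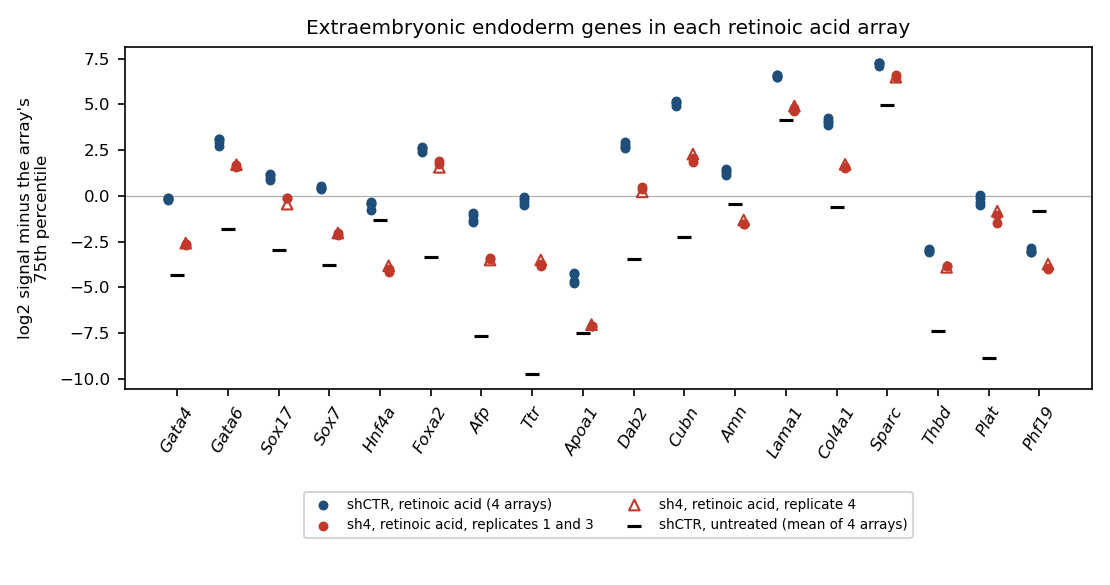
Log2 level (signal minus the array's 75th percentile) of 17 endoderm genes and Phf19 on each retinoic acid array. Blue circles are the 4 shCTR arrays, red circles sh4 replicates 1 and 3, open triangles sh4 replicate 4 and black bars the mean of the 4 untreated shCTR arrays. The sh4 arrays lie below every shCTR array for each gene, by the widest margin for Hnf4a (-3.51) and Ttr (-3.41).

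Of 16 definitive endoderm and gut genes, 5 were lower and 1 higher. The falls were again Nepn and the trypsin inhibitor Spink1 (-2.26), both also counted above, then the gut hormone Pyy (-1.88), Trh (-0.60) and the caudal factor Cdx2 (-0.55), and the tight junction gene Cldn4 rose by 0.47. The last 2 falls were fragile: Trh missed the threshold without sh4 replicate 1 or 3 or shCTR replicate 2, 3 or 4 (range -0.80 to -0.46), and Cdx2 missed the threshold without sh4 replicate 3 or shCTR replicate 4 (range -0.61 to -0.45 with 1 array left out).

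Endothelial and blood genes, whose founders form in the yolk sac beside the visceral endoderm, had 9 of 24 members lower and none higher by limma (10.3% of all genes lower), with a median of -0.23. At an unadjusted p under 0.05, 0 were higher. The endothelial cadherin Cdh5 was at -5.96, -5.91 and -6.01 in sh4 and at -3.42, -3.32, -3.64 and -3.59 in shCTR (-2.47 ± 0.19, adjusted p = 1.2e-06 by limma, and -1.22 with normexp). Runx1, the factor of the first blood stem cells, was at -1.67, -1.83 and -1.71 against 0.02, 0.02, 0.01 and -0.01 (-1.75 ± 0.06), and the junction protein Esam changed by -2.16. The receptor Flt1 changed by -1.01 in retinoic acid although the hairpin raised it by 2.10 in untreated cells (interaction -3.11). Of the 5 defining markers of the lineage, Cdh5, Runx1 and Gata1 fell and Pecam1 (-0.15) and Ptprc (0.09) did not pass the test. Without sh4 replicate 3 the Gata1 call was lost (-0.36).

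The pluripotency genes did not behave alike on the 3 sh4 arrays. The labels call all samples embryonic stem cells, and the 5 defining markers of undifferentiated ES cells were low in retinoic acid: their summed signal was 206 to 228 in untreated shCTR cells and 8.67 to 10.7 in shCTR cells in retinoic acid. On the sh4 arrays the sum was 3.83 to 8.04. The list of pluripotency genes, naive and core together, had 31 measured members, of which 19 were lower and 2 higher (median -0.80). Within slides the median was -0.91 and -0.80 for replicates 1 and 3 and -0.35 for replicate 4.

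Pou5f1 (Oct4), the central pluripotency factor, was at -0.59, -0.81 and 0.08 in sh4 replicates 1, 3 and 4 and at 1.49, 1.27, 1.45 and 1.23 in shCTR. The groups did not overlap and the difference was -1.80 ± 0.22 (adjusted p = 5.8e-05 by limma), or -2.06 without replicate 4. The Akt cofactor Tcl1 was at -1.93, -1.79 and -0.61 against 1.46, 1.12, 1.15 and 1.27 (-2.69 ± 0.24, and -3.11 without replicate 4). Fbxo15 (-1.22), Klf4 (-1.06), the Nodal antagonists Lefty2 (-1.61) and Lefty1 (-1.03) and the methylation cofactor Dnmt3l (-0.88) fell with little spread among the 3 arrays.

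Nanog was split: -1.37 and -1.34 in replicates 1 and 3, but 0.03 in replicate 4, just below the lowest of the shCTR arrays (0.18, 0.10, 0.18 and 0.50). Its difference was -1.13 ± 0.26 (adjusted p = 0.0065 by limma) over all arrays and -1.60 without replicate 4, and it missed the threshold in a fit of the 7 retinoic acid arrays alone (-1.13) and without the 3 arrays rated for evaluation (-0.90). Esrrb was at -2.04 and -2.16 in replicates 1 and 3 and at 0.42 in replicate 4, above all 4 shCTR arrays (-0.34, -0.46, -0.09 and 0.17). It did not pass the test (-1.08 ± 0.46, adjusted p = 0.13 by limma), while without replicate 4 the difference was -1.92 and past the threshold. Fgf4 (-2.88, -2.94 and -0.05) and Nr0b1 (-3.89, -3.97 and -2.18) showed the same order, with replicate 4 above every shCTR array for both, and neither passed the test with it. Without replicate 4 both did, at -1.78 for Fgf4 and -0.83 for Nr0b1. Prdm14 (-1.21) and Zfp42 (-0.75) were called with the 3 arrays but not in the fit of the 7 arrays alone, and were at -1.80 and -1.03 without replicate 4. The Prdm14 call also ended without sh4 replicate 1 or 3 or shCTR replicate 4 (range -1.80 to -0.89), and with normexp it was at -0.66. Phf19 was lower in replicate 4 (-3.73) than on any shCTR array, with a within-slide difference of -0.66, and what sets that array apart in the pluripotency genes was not tested.

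Sox2 went against the rest: it was at -1.60, -1.68 and -1.22 in sh4 and at -2.20, -2.30, -2.52 and -2.35 in shCTR, a rise of 0.84 ± 0.12 (adjusted p = 1.7e-04 by limma), or 0.70 without replicate 4. Dppa3 changed by -0.98 in retinoic acid and was raised by 3.01 in untreated cells (interaction -3.99).

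**Figure D3:**
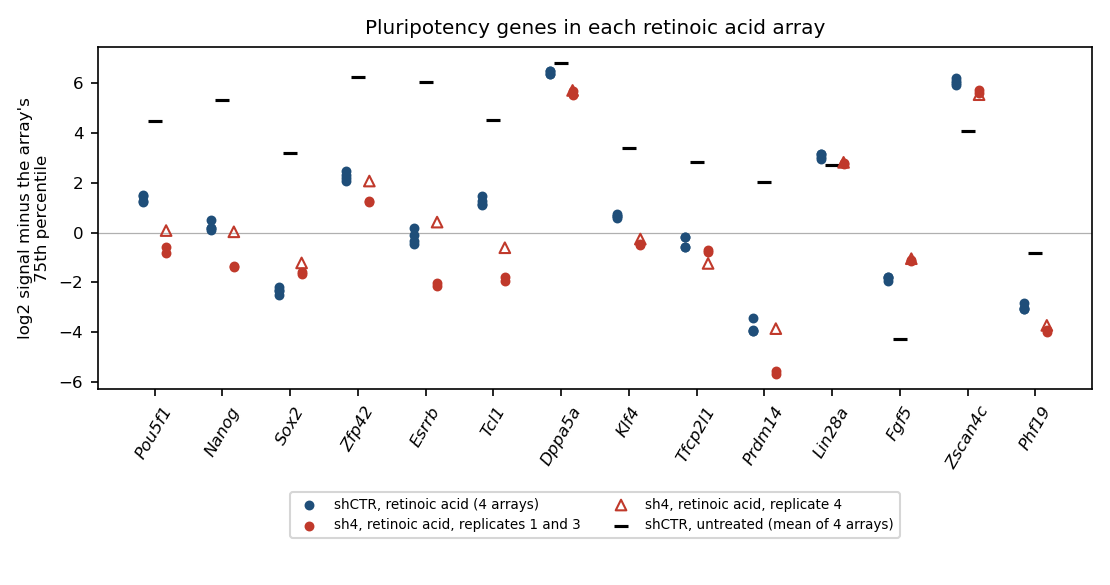
Log2 level of pluripotency genes, the primed epiblast gene Fgf5, the 2-cell-like gene Zscan4c and Phf19 on each retinoic acid array, with symbols as circles for shCTR (blue) and sh4 replicates 1 and 3 (red), open triangles for sh4 replicate 4 and black bars for the mean of untreated shCTR. Replicate 4 sits with or above shCTR for Esrrb and Prdm14 and between the groups for Nanog, Pou5f1 and Tcl1.

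Genes of the 2-cell-like state, a rare state of ES cells that resembles the early embryo, were lower in 17 of 23 cases and higher in 1 (median -0.88, within slides -0.81, -0.93 and -0.81). Pramel7, which protects naive cells from DNA methylation, was at -1.81, -1.71 and -1.58 in sh4 and at 1.01, 0.73, 1.06 and 1.23 in shCTR (-2.70 ± 0.11, adjusted p = 3.7e-09 by limma). Pramel6 changed by -1.34 (-0.66 with normexp), Calcoco2 by -0.99, Tdpoz4 by -0.98, Tdpoz2 by -0.97 and Zscan4c by -0.43, and Pramel13 rose by 0.42. Several of these genes belong to families of near-identical copies, and a probe may read more than 1 member. Replicate 4 did not stand apart here. The same list fell in untreated cells (17 of 23, where 14.1% of all genes fell, median -1.20). There the falls of Zscan4c (-1.16), Tdpoz3 (-2.11) and Tcstv3 (-1.70) were larger than in retinoic acid (interactions 0.73, 1.22 and 0.89, all past the threshold). Of 32 germ cell and meiosis genes 6 fell and 2 rose, with a median of 0.04 (10.3% of all genes fell and 10.8% rose). The falls included the homeobox gene Rhox5 (-1.55), the testis tubulin Tuba3a (-1.25) and Asz1 (-1.53), whose call was lost with normexp (-0.27).

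Of 29 known targets of retinoic acid 11 rose and 2 fell (10.8% and 10.3% of all genes), with a median of 0.20. Crabp2, the retinoic acid carrier that delivers it to the receptor, was at 6.0, 5.97 and 6.02 in sh4 and at 4.87, 4.96, 4.93 and 5.06 in shCTR (1.04 ± 0.08, adjusted p = 1.6e-06 by limma). Tshz1 rose by 0.71, Nr2f1 by 0.62 and Zfp703 by 0.62, and the receptor Rarg by 0.46. The receptor Rarb (-0.05) and the degrading enzymes Cyp26a1 (-0.06) and Cyp26b1 (-0.26) did not pass the test. Among the falls was the retinol transporter Stra6 (-0.99).

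The Hox genes, classic targets of both Polycomb silencing and retinoic acid, were mostly higher. Of 37 measured, 14 rose and 1 fell, with a median of 0.46, and for 24 of them every sh4 array lay above every shCTR array (17.7% of all genes did, and for 14.5% every sh4 array lay below). The count of Hox genes that rose was 23 in the deposited value table. Hoxd4 was at -1.73, -2.31 and -1.76 in sh4 and at -3.26, -3.34, -2.83 and -3.12 in shCTR (1.20 ± 0.22, adjusted p = 0.0012 by limma). Hoxd1 rose by 0.93 (0.58 with normexp), Hoxc6 by 0.77, Hoxa2 by 0.74, Hoxa3 by 0.70, Hoxc4 and Hoxb2 by 0.59 and Hoxb1 by 0.55. Hoxd3 was at -3.46, -3.44 and -3.36 against -4.76, -4.84, -4.71 and -4.60, the widest difference of the family at 1.31 ± 0.49, but its spread over the 4 groups left it short of the threshold (adjusted p = 0.08 by limma), which it passed with normexp at 0.74. Hoxc5 (0.99) was called on all arrays and missed the threshold when any 1 array other than shCTR replicate 2 was left out (range 0.93 to 1.05). In a fit of the 7 retinoic acid arrays alone Hoxd3 (1.31, adjusted p = 1.5e-04 by limma) and Hoxc5 (0.99, adjusted p = 9.5e-04) both passed. Among others, that fit also called rises of Hoxa4 (0.69), Hoxb5 (0.61), Hoxb6 (0.79) and Hoxd9 (0.53), and falls of Hoxa10 (-0.90) and Hoxa11 (-0.47). Over all 15 arrays the 1 fall was Hoxb13, the last gene of its cluster, at 1.5, 1.47 and 1.57 against 2.47, 2.28, 2.55 and 2.33 (-0.89 ± 0.08). In untreated cells the 37 were mixed, with 7 higher and 10 lower in sh4 (14.2% and 14.1% of all genes) and a median of -0.14. Hoxc4, Hoxb2, Hoxb7 and Hoxa7 were among the lower (-1.01, -1.10, -0.68 and -0.67), and their interactions of 1.60, 1.69, 1.14 and 1.13 passed the threshold. Of the 37 interactions, 13 were positive and past the threshold and 3 negative (10.2% and 10.1% of all genes).

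Other developmental transcription factors under Polycomb control changed in both directions, with 13 of 86 higher, 10 lower and a median of 0.11, close to the shares over all genes (10.8% and 10.3%). The limb factor Tbx4 rose by 1.04, Wt1 by 0.90, Dlx4 by 0.71 and Foxd1 by 0.65. The gut mesenchyme factor Foxf2 changed by -2.08 and the neural factor Nkx6-2 by -1.05. Olig3 was not well above background on any sh4 array and was at least 4.79-fold lower, a bound that did not hold with normexp (-0.51). Neural genes were mixed as well (5 of 31 higher, 6 lower): the neurofilament Nefl changed by -1.10 and Tubb3 by -0.72, the latter not called without sh4 replicate 1 (-0.59), while the stem cell filament Nes rose by 0.53 and Pax6 by 0.59. Of 25 streak and mesoderm genes, 4 rose and 4 fell, not far above the shares over all genes. Eomes, a factor of streak and trophoblast, changed by -1.19 and Foxc1 rose by 0.86, while T (-0.03), Mesp1 (0.16) and Tbx6 (-0.01) did not pass the test.

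Epithelial junction and surface genes were higher in 25 of 44 cases and lower in 2 (10.8% and 10.3% of all genes). The median was 0.46, with within-slide medians of 0.54, 0.37 and 0.44. Cldn3, a claudin of tight junctions, was at 2.14, 1.90 and 1.78 in sh4 and at 0.54, 0.55, 0.57 and 0.56 in shCTR (1.39 ± 0.09, adjusted p = 2.6e-07 by limma). Cdh1 (E-cadherin), the adhesion molecule of epithelia, was at 3.54, 3.38 and 3.22 against 2.61, 2.65, 2.62 and 2.49 (0.79 ± 0.07), and Epcam at 1.38, 1.19 and 1.20 against 0.30, 0.25, 0.26 and 0.32 (0.97 ± 0.08). Every sh4 array lay above every shCTR array for these 3 genes. The tight junction scaffolds Tjp1 (0.48) and Tjp3 (0.82), the membrane protease St14 (0.94) and its inhibitor Spint1 (0.50) rose with them. Grhl2 was at -0.84, -1.01 and -0.93 against -2.93, -2.89, -2.77 and -2.81. The keratins of simple epithelia Krt8 (0.00) and Krt18 (-0.06) did not pass the test, and the epithelial factor Elf3 fell, from 0.52, 0.44, 0.43 and 0.55 to -1.13, -1.12 and -1.22 (-1.64 ± 0.08).

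Most of these rises had a counterpart in untreated cells, where 35 of the 44 epithelial genes were higher in sh4 (14.2% of all genes were) and the median was 1.42. For Grhl2 (2.25 untreated), Cdh1 (0.72), Epcam (1.26) and St14 (1.21) the interaction did not pass the threshold. For 23 of the 44 it was negative and past it (10.1% of all genes), with Krt7 at 4.02 untreated and 1.32 in retinoic acid and Tmprss2 at 3.66 and 0.86. Trophectoderm and placental genes held 9 of 22 higher and 5 lower: Krt7, Wnt7b (0.77), Esx1 (0.75) and Peg10 (0.72) rose, and Eomes, Tead4 (-1.03) and Plac1 (-0.72) fell. In untreated cells 14 of the 22 rose and none fell. Plac1 was raised by 2.99 and Hand1 by 3.03 there, and in retinoic acid Hand1 changed by -0.45, a call lost when sh4 replicate 3 or shCTR replicate 1 or 2 was left out (range over those left out -0.54 to -0.37). The primed epiblast genes split 5 higher to 3 lower of 20 in retinoic acid, with Lef1 (1.06), Lin28b (0.78) and Fgf5 (0.74) higher and Dnmt3b (-0.43) lower, against 14 higher and none lower untreated.

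Targets of the tumour suppressor p53 rose together: 20 of 30 were higher and 1 was lower (10.8% and 10.3% of all genes). The median was 0.41 (within slides 0.42, 0.35 and 0.37). Perp, a desmosome protein, was at 3.55, 3.39 and 3.58 in sh4 and at 2.19, 2.06, 2.15 and 2.13 in shCTR (1.38 ± 0.08, adjusted p = 8.1e-08 by limma). Btg2 rose by 0.84, Plk2, Ccng1 and the cell cycle inhibitor Cdkn1a by 0.73 each, the death gene Bbc3 by 0.69, Bax by 0.41 and Mdm2, the ligase that degrades p53, by 0.34. The autophagy gene Dram1 was the exception, from -1.90, -2.34, -1.92 and -1.77 to -4.29, -4.43 and -4.02 (-2.26 ± 0.21). In untreated cells 20 of the 30 were higher too (14.2% of all genes), with a median of 0.40. The interaction was past the threshold for 4 up and 4 down, close to the shares over all genes (10.2% and 10.1%). Cdkn1a was among the 4 up, at -0.07 untreated (interaction 0.80). No G2 or mitosis gene of 26 passed the test in either direction by limma (median 0.05), and at an unadjusted p under 0.05 there were 0 higher and 0 lower. Their largest difference, that of Aurkb (0.88 ± 1.51), came with levels of -2.40, -1.59 and -5.44 against -2.27, -1.94, -5.36 and -6.53, and its within-slide differences were -0.13, 0.35 and -0.08.

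Interferon-stimulated genes were higher in 12 of 26 cases and lower in 2 (median 0.30). The immunoproteasome subunit Psmb8 rose by 1.16, the GTPase Gbp2 by 1.04 and the peptide transporter Tap1 by 0.75, and the chemokine Cxcl10 changed by -0.91. In untreated cells sh4 raised Psmb8 by 3.96, Gbp2 by 4.69 and Cxcl10 by 2.98, and all 3 interactions were negative and past the threshold (-2.80, -3.65 and -3.89). Genes of the unfolded protein response were lower in 10 of 25 cases and higher in 1, by small amounts: Creld2 by -0.72, Xbp1, the factor that expands the secretory pathway, by -0.66, Manf by -0.64 and Calr by -0.54. Genes of the FGF pathway held 4 of 23 higher and 6 lower (10.8% and 10.3% of all genes). Fgf3 was at -5.88, -6.02 and -5.69 against -3.26, -3.52, -3.32 and -3.11 (-2.56 ± 0.14), Fgf10 changed by -2.15 (with normexp they were at -1.19 and -0.99) and Fgfr4 by -1.30, while Fgfr1 rose by 0.40. The ERK-responsive factor Etv5 changed by -1.61 with the split seen for Nanog (-0.22, -0.31 and 0.80 against 1.55, 1.44, 1.80 and 2.01), and was at -1.96 without sh4 replicate 4. Among 23 BMP, Nodal and activin genes, 6 fell and 3 rose, with a median of 0.07 (10.3% of all genes fell and 10.8% rose): the BMP regulator Bmper by -2.20, Bmp6 by -1.72, Bmp2 by -0.94 and the activin antagonist Fst by -0.81, while Smad6 rose by 0.58. Imprinted genes (9 of 31 higher, 2 lower) included Nnat (0.86) and the growth inhibitor Cdkn1c (0.55). Of 23 sterol synthesis genes 4 rose and 1, the sensor Insig1, fell (-1.19), beside 10.8% and 10.3% of all genes. Of 24 glycolysis and hypoxia genes 6 fell and none rose by limma, by amounts from -0.64 (Ndrg1) to -0.29 (Ldha), with 0 higher at an unadjusted p under 0.05.

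**Figure D4:**
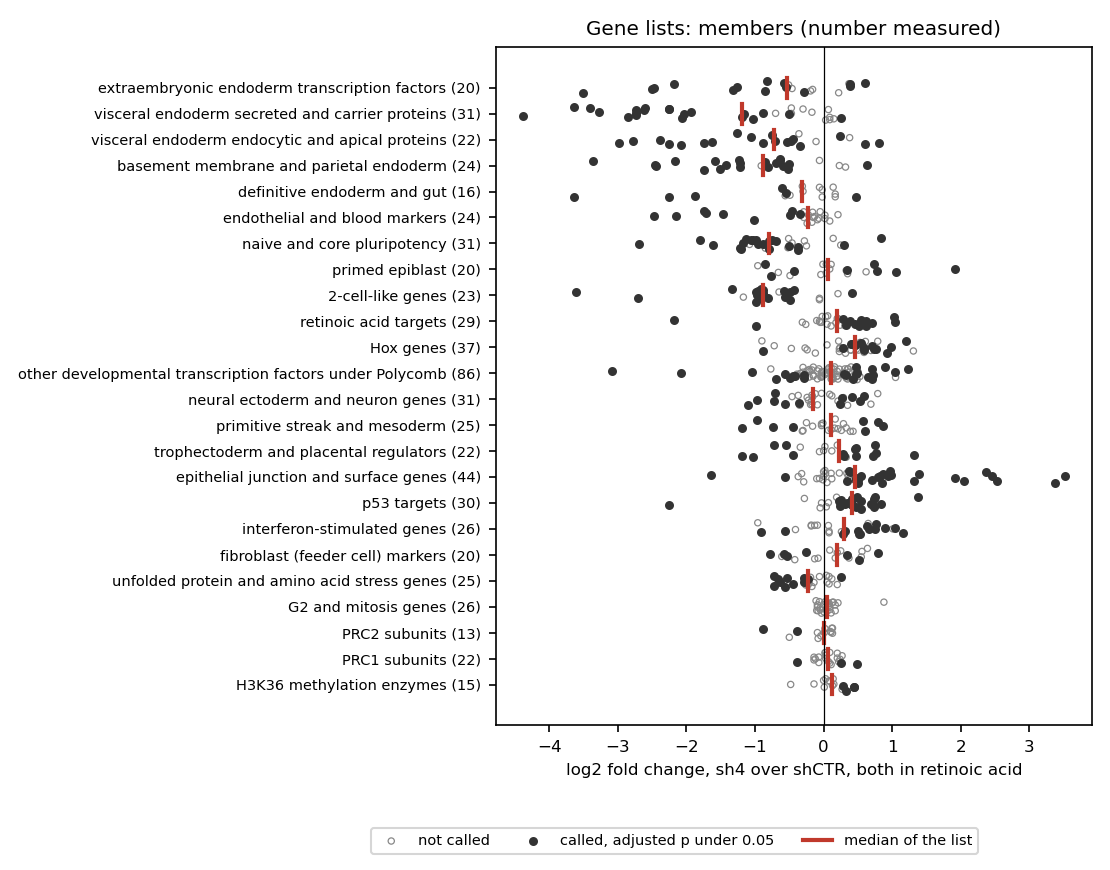
Log2 fold change of sh4 over shCTR in retinoic acid for the measured members of 24 gene lists. Filled points passed an adjusted p of 0.05, open points did not, and a red bar marks each list's median. The 4 endoderm and basement membrane lists at the top lie to the left, with medians of -0.53, -1.19, -0.73 and -0.89, and the epithelial (0.46), p53 (0.41) and Hox (0.46) lists to the right.

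Markers of other cell types moved with the comparison as follows. The summed signal of the 4 trophectoderm markers was higher in sh4 (5.28 to 6.03 against 3.1 to 3.47), led by Krt7. Of these markers Krt7 (1.32) and Gata3 (0.47) rose, Cdx2 fell (-0.55, the fragile call given above) and Elf5 (0.12) did not pass the test. That of the 5 fibroblast markers, which would show feeder cells, was 5.82 to 6.33 against 4.28 to 5.35, with Col3a1 higher (0.80), Thy1 lower (-0.58) and Col1a1 (0.36), Dcn (0.64) and Pdgfrb (0.17) not called. The sums of the neural (0.806 to 1.05 against 1.1 to 1.44), mesoderm (0.547 to 0.598 against 0.642 to 0.789) and endothelial and blood markers (0.428 to 0.466 against 1.23 to 1.26) were lower. Of the 5 neural markers 2 rose (Pax6, 0.59, and Map2, 0.27) and only Tubb3, the brightest probe, fell (-0.72). The Map2 call was lost without sh4 replicate 1 and with normexp background correction. Of the 4 mesoderm markers only Hand1 fell, the fragile call given above, and T, Mesp1 and Tbx6 did not pass the test. None of these markers was below background on all 7 arrays. The part of such cells in the changes above was not tested.

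The untreated arrays share no sample with the comparison, so the larger changes can be set beside the sh4 effect in untreated cells. Of the 723 genes at least 2-fold lower in retinoic acid, 323 (44.7%) were also lower in untreated sh4 cells, 73 (10.1%) were higher and 327 did not pass the test there, against 14.1% lower and 14.2% higher over all genes. Their interaction was negative and past the threshold for 434 (60%), where 10.1% of all genes had such an interaction. Since these genes were chosen for a low value in retinoic acid, which also enters the interaction, that share is a description. Of the 129 genes at least 2-fold higher, 82 (63.6%) were higher in untreated cells as well, 4 lower and 43 did not pass the test. Over all genes, 7132 were called in untreated cells (28.4%) and 5109 by the interaction (20.3%, with 10.2% positive and 10.1% negative).

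**Figure D5:**
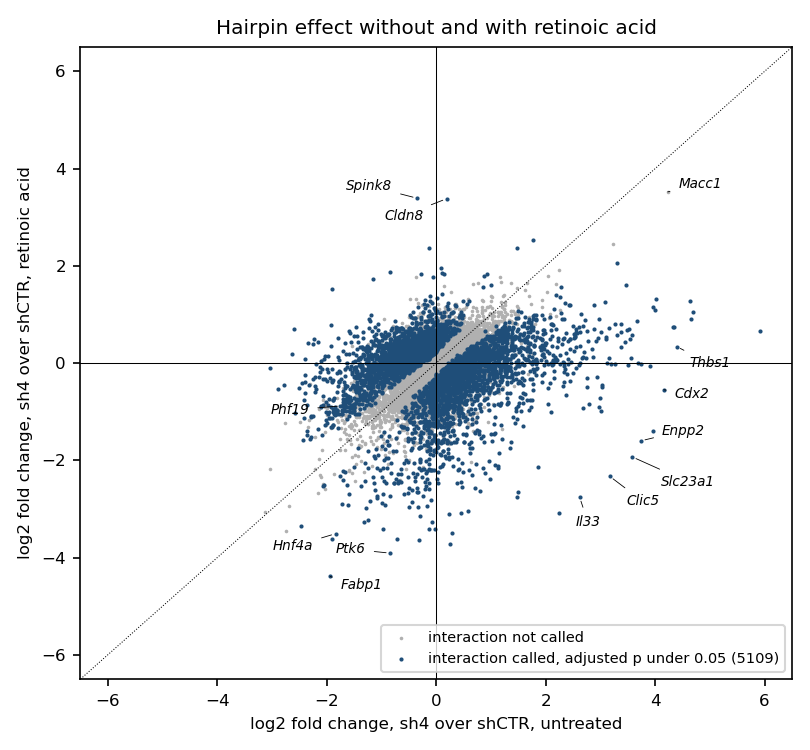
Log2 fold change of sh4 over shCTR in untreated cells (horizontal) and in retinoic acid (vertical) for all genes tested. Blue points are the 5109 genes whose interaction passed an adjusted p of 0.05 and the dotted line marks equal effects. Il33, Clic5, Slc23a1 and Enpp2 lie at the lower right, raised untreated and lowered in retinoic acid, and Macc1 near the line at 4.23 and 3.52. Clic5 and Macc1 were not well above background on any untreated shCTR array. Slc23a1 was not well above it on any sh4 array in retinoic acid, and its call there was lost with normexp.

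Among genes above background in both retinoic acid groups, the largest negative interactions were those of Clic5, a chloride channel protein of apical membranes (-5.50), and of the cytokine Il33 (-5.38). Clic5 was at -3.97, -3.78 and -3.66 in sh4 and at -1.41, -1.63, -1.51 and -1.33 in shCTR (-2.33 ± 0.11 in retinoic acid, 3.17 untreated, adjusted p of the interaction 5.6e-10 by limma). Il33 was at -1.74, -1.82 and -1.15 against 1.21, 1.17, 1.11 and 1.26 (-2.76 ± 0.17, and 2.62 untreated). The lysophospholipase Enpp2 (-1.60 and 3.74, with -0.96 in retinoic acid under normexp) and the Nodal co-receptor Cfc1 (-2.75 and 1.48) reversed in the same way. In contrast Gbp3 and the matrix protein Thbs1 were raised by 5.91 and 4.39 in untreated cells. In retinoic acid neither passed the test over all arrays (0.65 ± 0.28, adjusted p = 0.14, and 0.34 ± 0.13, adjusted p = 0.078, by limma). Gbp3 was at -1.15, -1.26 and -1.36 in sh4 and at -1.91, -1.87, -1.86 and -2.01 in shCTR, without overlap. It passed in a fit of the retinoic acid arrays alone (0.65, adjusted p = 0.0017 by limma) and with normexp (0.61, adjusted p = 0.025). Thbs1 passed in neither (adjusted p = 0.15 and 0.19). Gbp3 and Clic5 were not well above background on any untreated shCTR array. The size of their untreated effects and interactions is therefore set against background signal.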

How the data were processed

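Total RNA of the 15 mouse samples was hybridised to 1-colour Agilent arrays. The deposited scanner files hold spot intensity, background-subtracted by Feature Extraction 10.7.3.1 per the file headers. The deposited value table holds log2 values of the same arrays and served as an alternative. The submitters' processing notes name the mouse build mm9.

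Control spots were left out. Processed intensity was taken as log2 minus each array's 75th percentile, probes had to be well above background in a group on 3 arrays or more, and the probe with the highest mean stood for its gene, which left 31179 probes and 25139 genes. Of 39429 probes, 26055 were named through RefSeq accessions and 13374 kept the file's name. One limma 3.58.1 model (R 4.3.3) over 15 arrays and 4 groups, with 11 residual degrees of freedom, gave the sh4 effect in retinoic acid, the effect in untreated cells and their difference, called the interaction. P-values were adjusted by Benjamini-Hochberg over all genes at a threshold of 0.05.

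A bound ("at least") is given where a gene was not well above background on any array of one retinoic acid group. It sets the mean of the brighter group against the higher, on each array, of the dim probe's own signal and the lowest signal among probes well above background. Replicate numbers were not used to pair the samples: correlations of deviations for same-numbered arrays of the retinoic acid groups ran from -0.35 to 0.559 over 3 pairs. Whether the numbers mark pairs cannot be settled here. Number and slide are the same for every array but sh4 replicates 3 and 4 in retinoic acid. The genes named were the 15 largest rises and the 15 largest falls with non-overlapping arrays, the 10 largest interactions in each direction, Phf19, and up to 5 called members per direction of each list, with other members where their role is described. A few genes that the rule names are not reported here. The comparison and its members, the marker sets and the 31 gene lists were chosen with earlier results of these data known, and 1 list had no measured member. The fit was tested on simulated data. Promoters and names come from RefSeq on GRCm38.p6. Arrays give no depth, so their number limits the precision.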

Additional observations from a re-analysis of the deposited data

Results flagged for a closer look

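The effect of sh4 differed between retinoic acid and untreated cells by the interaction test for the genes given here. For Phf19 the interaction was 0.85 (log2, retinoic acid minus untreated). The negative interactions named were those of Slc23a1 (-5.51), Clic5 (-5.50), Il33 (-5.38), Olig3 (-5.34), Enpp2 (-5.33), Gbp3 (-5.26), Cdx2 (-4.71), Cfc1 (-4.23) and Thbs1 (-4.05). The positive ones were those of Spink8 (3.74), Adgrd1 (3.42), Nkx6-3 (3.31), Cldn8 (3.19), Kng2 (2.87), Cdh22 (2.82), Cdh23 (2.76), Hoxd3os1 (2.72), Slc32a1 (2.72) and Baalc (2.72). Adgrd1 was raised by 1.53 in retinoic acid and was at -1.90 untreated, while Cdh23 was below background in both retinoic acid groups, so that its interaction rests on the untreated arrays. Clic5 and Gbp3 were not well above background on any untreated shCTR array, nor was Baalc on any untreated sh4 array. Spink8, Cldn8 and Hoxd3os1 were well above background only on the sh4 arrays in retinoic acid. Slc23a1 and Olig3 were not well above it on any of those arrays. With normexp background correction the calls in retinoic acid of Slc23a1 (-0.34) and Kng2 (0.37) were lost.

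In 2 cases 1 shCTR array in retinoic acid stood apart from the other 3 in the mean level of a gene list: the BMP, Nodal and activin genes, with a gap of 0.867 of the group's range, and the fibroblast markers, with a gap of 0.848, both above Dixon's critical value for 4 arrays. Among the 78 genes and gene lists tested on these 4 arrays, chance alone gives such a gap in about 1 of 20. The 2 found are no larger a share than that.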

How the results depend on the processing

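Of 363 genes named or listed as changed, 357 were called, all 357 kept their direction under the alternatives that gave them a value (17 or 18 each, since the filter on all 15 arrays drops some genes), and 228 also stayed past the threshold under each of those. The count of genes changed in retinoic acid (5288) was 3353 with normexp background correction and 3278 with median scaling (up 1680 and 1569, down 1673 and 1709). Rises of at least 2-fold (129) numbered 45 with normexp, 49 in the deposited value table and 79 where signals had to be well above background on every one of 15 arrays, and falls (723) numbered 335, 352 and 463. The interaction called 3017 genes with normexp and 2963 with median scaling, and the untreated effect 4627 with normexp. Among the lists, 10 secreted and carrier genes fell when genes had to be well above background on all 15 arrays, where fewer genes are tested, and 23 Hox genes rose in the deposited value table. The cause was not tested for the other settings.

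With 1 array left out, the count of genes changed by the hairpin in retinoic acid ran from 3913 to 4725 (1810 to 2329 up, 2103 to 2431 down, 117 to 156 up and 655 to 780 down at least 2-fold). The interaction then called 4263 to 4710 genes and the untreated effect 6898 to 7076. Pluripotency members that fell ranged from 17 to 23, and Phf19 from -0.95 to -0.82. With the replicate number as a block, which is the same as the slide for most arrays, 6253 genes were called and Phf19 was at -0.90. With slide as a block 7016 were called, and 3961 without the 3 arrays rated for evaluation, a setting chosen after seeing the data. The median of all genes stayed between 0.01 and 0.06 over the alternatives. Signal close to background limits the folds of dim genes.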
